A study of Mus musculus with 8 samples.

Results

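Oxidative phosphorylation subunit genes were compared between adult oligodendrocyte progenitor cells (aOPC) and adult oligodendrocytes (aOL), in RNA level and in DNA hydroxymethylation. They were taken by symbol, as every gene in the RNA tables whose name starts with Nduf, Sdha, Sdhb, Sdhc, Sdhd, Uqcr, Cox4, Cox5, Cox6, Cox7, Cox8 or Atp5. The rule found 89 of 11315 genes, of which 36 belong to complex I, 4 to complex II, 7 to complex III, 13 to complex IV and 15 to complex V, and 14 are assembly or coupling factors. Of the 1497075 hydroxymethylation sites in the series, 1406 carried 1 of these genes in the promoter, exon or intron column. The aOPC were sorted as EGFP-positive cells from Pdgfra-H2BEGFP mice and the aOL from Plp-EGFP mice, both C57BL/6, of either sex and at postnatal day 60, from brain. Neither line carried a mutation under study and no mouse was treated. Each population had 2 RNA-seq libraries and 2 libraries of reduced representation hydroxymethylation profiling (RRHP), numbered replicates 2 and 3, and per the study's methods RNA and DNA came from the same pellets. The reporter line and the population change together, so that differences between lines and differences between populations cannot be told apart. The tissue label of the aOL RRHP libraries names the Pdgfra reporter instead, against their titles, which were followed here, so that every 5hmC comparison below rests on the titles. The sample titles call the aOL of the RNA libraries pre-myelinating.

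The mitochondrial respiratory chain passes electrons from NADH (complex I) and succinate (complex II) through complexes III and IV to oxygen, pumps protons across the inner membrane, and drives ATP synthase (complex V) with the resulting gradient. Most subunits are encoded in the nucleus and imported, and a few are encoded by mitochondrial DNA. Progenitors are known to depend on oxidative phosphorylation during differentiation, whereas mature oligodendrocytes rely largely on glycolysis and pass lactate to axons. Nuclear subunit genes typically have CpG island promoters with sites for NRF1, GABPA, YY1 and the estrogen-related receptors.

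The libraries were first set against their labels. Of 10 listed OPC markers in the RNA tables, 4 were lower in both aOL libraries than in both aOPC libraries and 1 was higher. Their median was 8.75 in aOPC replicate 2 and 6.61 in aOPC replicate 3, against 6.80 and 6.87 in aOL. By this median aOPC replicate 3 lay below both aOL libraries. Pdgfra, the receptor behind the aOPC reporter, had log2 values of 7.54 and 5.47 in aOPC against 4.98 and 1.63 in aOL. Myelin genes were as high in the libraries labelled aOPC as in the aOL libraries: the median of 11 oligodendrocyte markers was 17.94 and 17.55 in aOPC against 17.62 and 17.59 in aOL. The 8 astrocyte markers had medians of 10.48 and 9.9995 in aOPC against 9.01 and 9.65 in aOL, and 10 microglial markers 8.32 and 7.60 against 7.43 and 7.07, where the median gene tested lies at 10.62. Cldn5, the only one of 7 endothelial markers in the tables, stood at 0.33 and 1.80 in aOPC against 5.92 and 7.13 in aOL. The 4 neuronal markers tested were lower in the mean in aOL, 2 of them without overlap, and Stmn2 had 7.42 and 6.53 in aOPC against 5.28 and 4.46 in aOL. Vtn, the only one of 5 pericyte markers in the tables, had 4.96 and 7.09 against 5.99 and 9.74. The part of these other cells in the results below was not tested. Among the RRHP libraries, which held between 7113237 and 27057859 reads, aOPC replicate 2 was the shallowest and had 5.74% of its reads in CpG islands, against 2.38% to 3.32% in the others.

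RNA of most of these genes was lower in aOL, with complex II divided, and no single gene passed the test. The mean was lower in aOL for 85 of 89 genes, with a median log2 fold change of -0.93, a factor of 1.90, where the median of all 11133 genes tested was 0.02. Both aOL libraries lay below both aOPC libraries for 79 members, and both lay above for 1; over all genes tested the shares were 29.9% and 31.9%. An unadjusted limma p under 0.05 with a lower mean was reached by 59 members, against 12% of all genes, and by none with a higher mean. With Benjamini-Hochberg adjustment no member was called in either direction (adjusted p from 0.122 to 0.740), where limma called 0.00898% of all genes higher and 0.0719% lower. The aOPC libraries differed between themselves in these genes: replicate 3 was above replicate 2 for 80 of 89 members, by a median of 0.56, whereas the aOL libraries were 0.06 apart. Left without aOPC replicate 2, the fit called 71 members lower, beside 17.1% of all genes lower and 17.1% higher. Without aOPC replicate 3 it called 39 lower and 2 higher, beside 7.83% and 9.90% of all genes. Such fits take the spread from the aOL pair and assume that the lone aOPC library varies like it. In sorted bulk samples, a smaller share of cells that express a gene and less RNA per cell cannot be told apart.

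**Figure D1:**
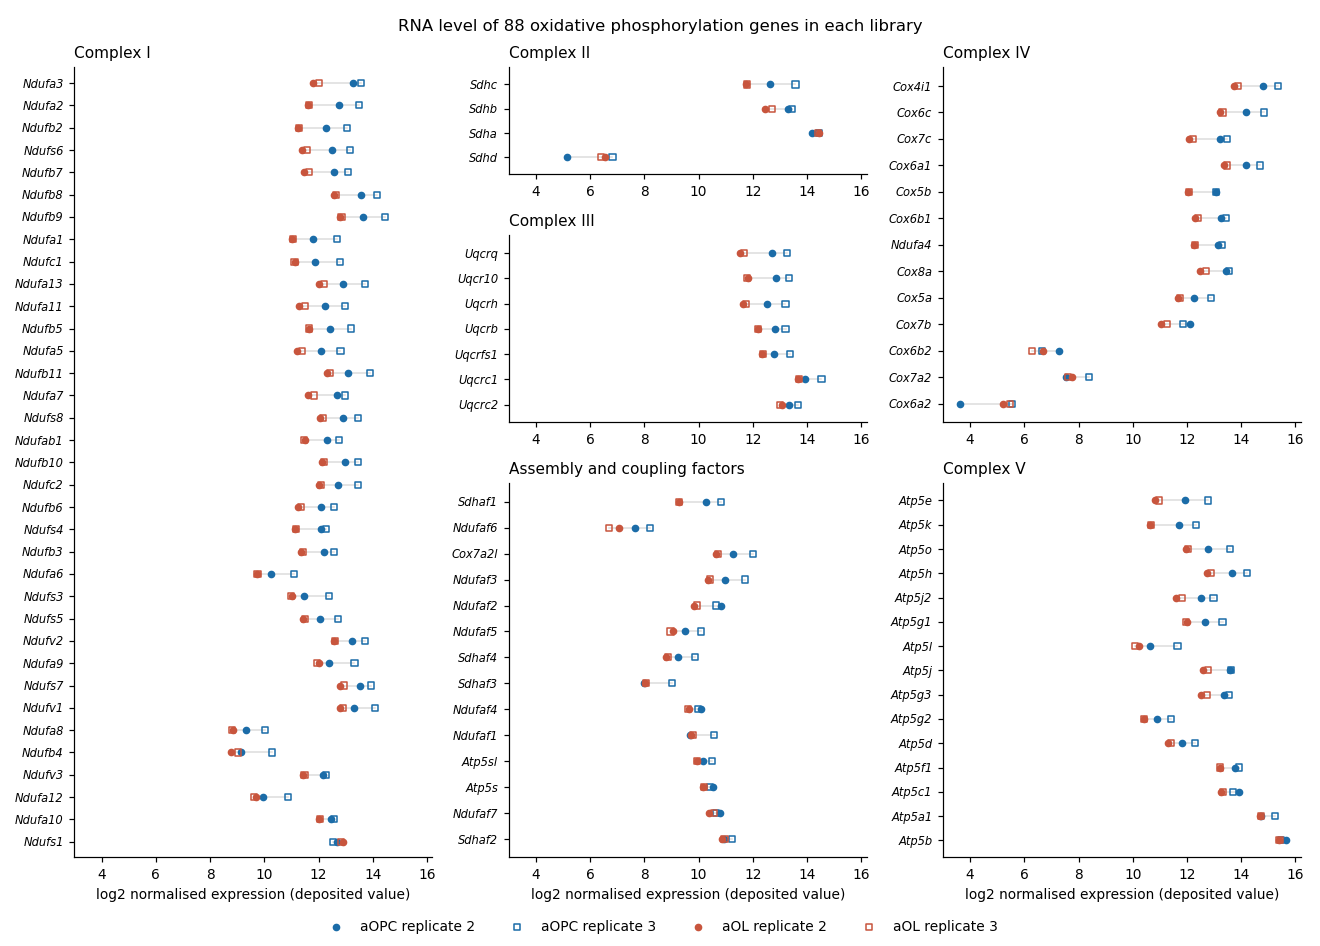
Deposited log2 expression of 88 of the genes in each of the 4 RNA libraries, by complex, with the genes of each panel ordered by fold change. Points are single libraries, blue for aOPC and red for aOL. The red points lie to the left of both blue points for most genes, and the blue squares of aOPC replicate 3 mostly lie furthest to the right.

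Complex I oxidizes NADH and is the largest of the complexes. Of its 36 members 35 were lower in aOL without overlap, with a median log2 fold change of -1.04. The 29 accessory subunits, which surround the catalytic core and hold it together, were all lower without overlap (median -1.12). The 7 core subunits that carry flavin or iron-sulfur clusters had a median of -0.86. With the length trend described below removed, the order turned, to -0.24 for accessory and -0.32 for core subunits. Ndufa3, an accessory subunit, had the smallest p of the complex. Its log2 values were 13.27 and 13.57 in aOPC against 11.80 and 12.01 in aOL, a change of -1.51 ± 0.22 (SE, n = 2 per population; limma adjusted p = 0.122). The aOL libraries were thus well below both aOPC libraries, by a factor of 2.85.

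Next by p came 3 further accessory subunits. Ndufs4, which is needed for assembly of the NADH-binding module, had values of 12.08 and 12.27 in aOPC against 11.14 and 11.17 in aOL, a change of -1.02 ± 0.20 (SE; limma adjusted p = 0.133). Ndufa7 had 12.69 and 12.98 against 11.61 and 11.83, and Ndufb7, which sits in the membrane arm, 12.58 and 13.09 against 11.46 and 11.66. Their changes were -1.12 and -1.28, with no overlap between populations in either gene. The only member of complex I above its aOPC values was Ndufs1, an iron-sulfur subunit, at 12.69 and 12.53 in aOPC against 12.91 and 12.84 in aOL. Its change of 0.27 ± 0.19 (SE) did not pass the test (limma adjusted p = 0.438).

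Complex II, which links the tricarboxylic acid cycle to the chain and has no subunit encoded in mitochondrial DNA, was divided. Sdhc, a membrane anchor, had log2 values of 12.64 and 13.57 in aOPC against 11.74 and 11.80 in aOL (-1.34 ± 0.37, SE). Sdhb, the iron-sulfur subunit, had 13.30 and 13.45 against 12.45 and 12.70 (-0.80 ± 0.21). Neither overlapped between the populations, and neither passed the test (limma adjusted p of 0.165 and 0.158). Sdha, the flavoprotein that oxidizes succinate, was level, at 14.19 and 14.44 in aOPC against 14.45 and 14.42 in aOL. Sdhd, the other membrane anchor, was low per kilobase of transcript (log2 of 5.68 in aOPC and 6.18 in aOL, where Sdhc had 12.11 and 10.77). Its log2 values were 5.14 and 6.83 in aOPC against 6.56 and 6.40 in aOL, and its populations overlapped.

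Complex III transfers electrons from ubiquinol to cytochrome c. All 7 members were lower without overlap (median -0.83). Uqcrq, a small accessory subunit, differed most: it had values of 12.70 and 13.25 in aOPC against 11.54 and 11.66 in aOL (-1.38 ± 0.27, SE), and Uqcr10 had 12.84 and 13.34 against 11.83 and 11.80 (-1.28 ± 0.25). Uqcrh, the hinge protein, differed by -1.17 and Uqcrb by -0.83. The large core subunits Uqcrc1 and Uqcrc2 differed by -0.53 and -0.44. With the length trend removed these 2 were at -0.22 and -0.25. Of the accessory subunits, Uqcrq was then lower, at -0.34, and Uqcr10 (-0.15), Uqcrh (-0.10) and Uqcrb (0.17) were higher. Before that step the Rieske iron-sulfur protein Uqcrfs1 lay between, at -0.72. None passed the test (limma adjusted p from 0.133 to 0.326).

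Complex IV, cytochrome c oxidase, reduces oxygen. Of its 13 members, counting Ndufa4, which was first assigned to complex I, 10 were lower without overlap (median -0.94). Cox7c had log2 values of 13.22 and 13.48 in aOPC against 12.07 and 12.22 in aOL (-1.20 ± 0.21, SE; limma adjusted p = 0.128). Cox5b had 13.06 and 13.07 against 12.03 and 12.07 (-1.02 ± 0.18; limma adjusted p = 0.132). The populations were apart in both genes. Cox6b1 and Ndufa4 differed by -0.99 and -0.94.

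The tissue-variable subunits of complex IV include isoforms tied to muscle or testis. Cox6a1 itself had values of 14.17 and 14.70 in aOPC against 13.36 and 13.46 in aOL, and Cox4i1 had 14.80 and 15.36 against 13.73 and 13.87, without overlap. Levels of different genes are compared per kilobase of transcript, on the log2 scale. Cox6a1, the broadly expressed isoform of subunit 6a, was at 15.24 per kilobase in aOPC and 14.22 in aOL, whereas Cox6a2, the heart and muscle isoform, was at 5.14 and 5.90. Cox6b1 stood at 14.39 and 13.41, against 8.17 and 7.69 for the testis isoform Cox6b2. The isoforms Cox4i2, Cox7a1 and Cox8b were not analysed here, and their counterparts Cox4i1 (15.48 and 14.21) and Cox8a (14.36 and 13.45) were high. Cox7a2, the non-muscle isoform of subunit 7a, was listed low, at 8.55 and 8.29. The low isoforms did not separate the populations: Cox6a2 had values of 3.64 and 5.54 in aOPC against 5.203 and 5.48 in aOL, Cox6b2 had 7.29 and 6.66 against 6.69 and 6.29, and Cox7a2 had 7.52 and 8.39 against 7.77 and 7.61.

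Complex V makes ATP by rotation. All 15 members were lower in the mean and 14 did not overlap (median -0.92), and no difference between its parts was tested. The catalytic head, whose transcripts are long among the members, had a median of -0.20, and -0.13 with the length trend described below removed. Of the head, Atp5b had log2 values of 15.63 and 15.47 in aOPC against 15.40 and 15.41 in aOL (-0.15 ± 0.19, SE). Atp5a1 had 14.72 and 15.23 against 14.70 and 14.73 (-0.26 ± 0.26). The central stalk had a median of -0.70, the peripheral stalk -1.03, the accessory membrane part -1.03 and the c ring -0.83, and with the length trend removed these were -0.03, -0.27, -0.05 and -0.0048, so that the head was no longer nearest to 0. Atp5e, the epsilon subunit of the central stalk, had 11.91 and 12.77 in aOPC against 10.81 and 10.95 in aOL, a change of -1.46 ± 0.35 (SE; limma adjusted p = 0.148). Atp5k, of the membrane part, differed by -1.35 (limma adjusted p = 0.134), Atp5h of the peripheral stalk by -1.13 and Atp5j of the same stalk by -0.92.

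The c ring, which turns as protons pass, is built from identical mature proteins made by 3 genes. Per kilobase, Atp5g3 was the most abundant, at 13.93 in aOPC and 13.10 in aOL, followed by Atp5g2 at 11.92 and 11.17 and Atp5g1 at 11.57 and 10.56, and the order was the same in both populations. The order of Atp5g1 and Atp5g2 rests on median transcript lengths of 2675.5 and 586 bases. Without division by length, Atp5g1 lay above Atp5g2 in every library. Atp5g1 had log2 values of 12.68 and 13.31 in aOPC against 11.98 and 11.97 in aOL, Atp5g2 had 10.88 and 11.43 against 10.40 and 10.40, and Atp5g3 had 13.36 and 13.56 against 12.53 and 12.73. None of them overlapped between the populations. Near-identical copies elsewhere in the genome can divert uniquely aligned reads, so these levels are uncertain for Atp5g1 and Atp5g2 and for 12 further members, among them Atp5l, with 10 copies of at least 95% identity over at least 70% of the transcript. The 14 members with such copies had a median change of -1.02 and the 74 without had -0.90.

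Assembly and coupling factors help build the complexes or join them. All 14 were lower in the mean, 11 without overlap, with a median of -0.57. Sdhaf1, which helps insert iron-sulfur clusters into complex II, had values of 10.27 and 10.81 in aOPC against 9.28 and 9.29 in aOL (-1.26 ± 0.26, SE; limma adjusted p = 0.134). The complex I assembly factors Ndufaf6 and Ndufaf2 differed by -1.05 and -0.88. Cox7a2l, which joins complexes III and IV into supercomplexes, differed by -0.96.

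Genes around the chain were read from lists drawn up beside the members. All 13 subunits encoded by mitochondrial DNA were lower in aOL without overlap, with a median of -1.50. For mt-Nd4, of complex I, the values were 16.32 and 16.39 in aOPC against 14.72 and 14.60 in aOL, and for mt-Co1, of complex IV, they were 18.21 and 18.60 against 17.10 and 16.97. Of 39 assembly factors and carriers outside the symbol rule, 25 were lower and 4 higher without overlap (median -0.51). Cycs, cytochrome c, had 11.79 and 12.48 in aOPC against 11.26 and 11.33 in aOL. In the tricarboxylic acid cycle, which feeds the chain, of 16 enzymes 6 were lower and 8 higher without overlap, with a median of 0.08. With the length trend described below removed, this median was 0.04 and that of the members -0.21, and the difference was not tested. The subunits encoded by mitochondrial DNA then had a median of -0.64, with 11 of 13 lower in the mean. The outside assembly factors and carriers had -0.17, with 24 of 39 lower. Suclg2, a GTP-forming succinyl-CoA ligase subunit, was higher, at 5.65 and 6.71 in aOPC against 8.70 and 8.31 in aOL. Of 8 regulators, Gabpa was higher without overlap (10.40 and 10.79 against 11.62 and 11.49), as were Nrf1 and Polrmt, and Yy1 was lower. No gene of these lists passed the test.

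**Figure D2:**
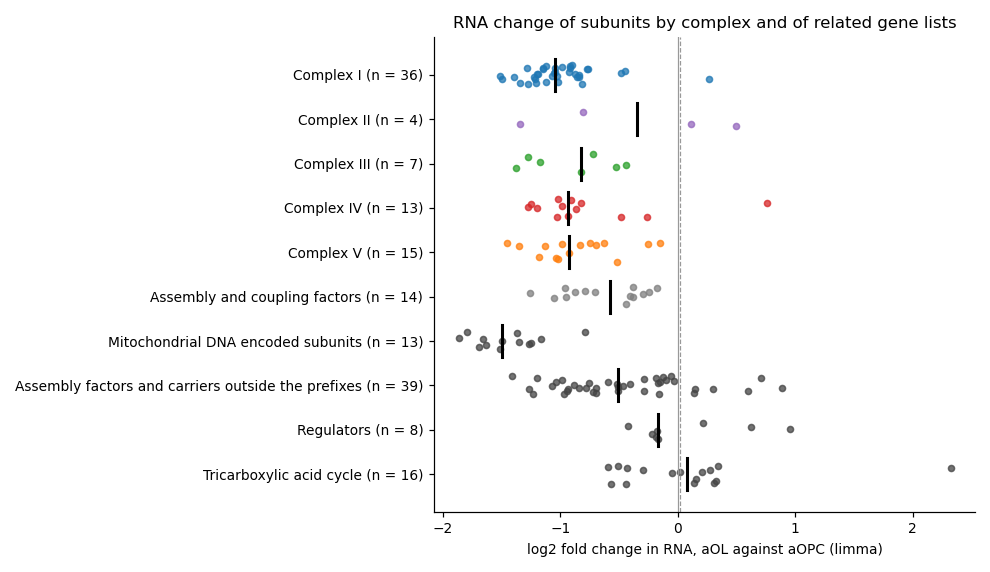
Log2 fold change in RNA, aOL against aOPC, of each member by complex and of each gene of 4 related lists. Dots are genes, black bars the median of each row and the dashed line the median of all genes tested. The mitochondrial DNA encoded subunits lie furthest to the left (median -1.50), complexes I, III, IV and V have medians from -1.04 to -0.83, and the tricarboxylic acid cycle is centred near 0 (median 0.08).

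Transcript length moved with the difference over the whole table. The members are short, with a median transcript of 773 bases against 2795 for all genes tested. Short transcripts were lower in aOL in general: the Spearman correlation of length with log2 fold change was 0.54 over 10750 genes, and 0.48 over 88 members, given as a description, since all genes come from the same 4 libraries. Below 600 bases the median change was -0.98 for 129 other genes and -1.12 for 25 members. From 600 to 1000 bases it was -0.75 for other genes and -0.99 for 27 members, and from 1000 to 1500 bases it was -0.50 against -0.87 for 15 members. From 2000 to 3000 bases the other genes were at 0.02 and 10 members at -0.37. The members were thus lower than other genes of like length in each range. With the trend on length removed from each library, a step added after the values were seen, 67 of 88 members were lower and 50 were so without overlap, beside 26.3% of all genes, with a median of -0.21. The members higher without overlap were then 8, beside 25.3% of all genes. The subunits of complex I had a median of -0.28 and those of complex IV had 0.03. Length also separated the aOPC libraries, since replicate 3 exceeded replicate 2 by a median of 0.38 in other genes below 600 bases and lay 0.11 below it in genes over 3000 bases. The part of length in the difference between populations was otherwise not tested.

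**Figure D3:**
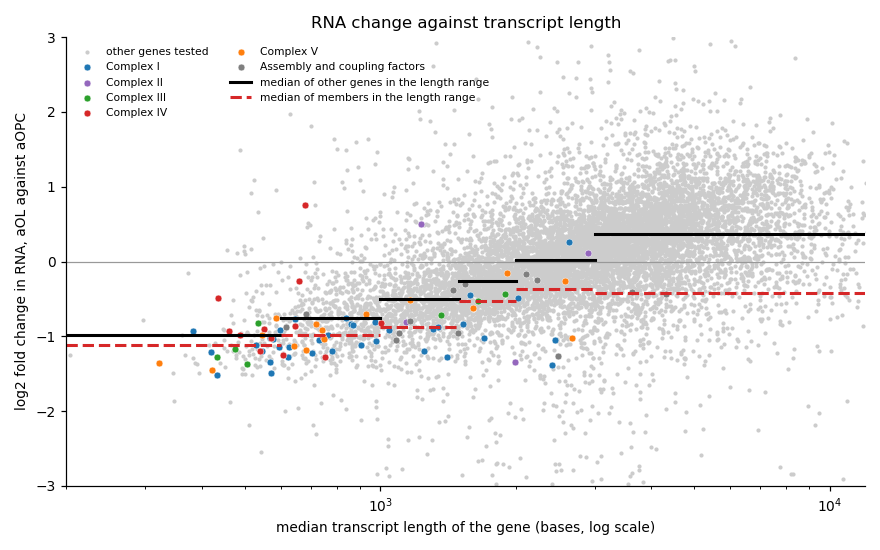
Log2 fold change in RNA against the median transcript length of each gene, on a log axis, with members coloured by complex and other genes in grey. Black lines are the medians of other genes in 6 length ranges and dashed red lines those of the members. The black line rises from -0.98 below 600 bases to 0.37 above 3000, the red line goes from -1.12 to -0.42, and the red line lies below the black line in every range.

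DNA hydroxymethylation was read at CCGG sites, where RRHP keeps a fragment when the inner cytosine carries 5-hydroxymethylcytosine (5hmC), an oxidized form of methylcytosine that TET enzymes make. All 1406 sites of the members lay at a CCGG of the GRCm38 genome. A site also needs an intact CCGG in the animal, and genotypes were not analysed here. As elsewhere in the genome, promoters held less 5hmC than gene bodies. The 796 promoter sites, of which 72.5% were in CpG islands, averaged 0.41 and 0.18 CPM (reads scaled to the library total) in aOPC against 0.17 and 0.21 in aOL. The 461 intron sites averaged 0.93 and 0.97 in aOPC against 0.93 and 0.85 in aOL. Over all genes, 65.9% of promoter sites were in CpG islands, and promoter sites averaged 0.41 and 0.24 in aOPC against 0.23 and 0.26 in aOL. The members lay lower in all 4 libraries, but in aOPC replicate 2 only at 0.406 against 0.409. Promoter reads in aOPC replicate 2 were high for members and other genes alike.

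The promoters of the chain showed little difference between the populations. Of 73 members with promoter sites, 68 passed the filter on low counts, and their median log2 fold change was -0.14, where the median of all 14579 promoters was -0.01. No promoter was called higher and 1 was called lower, where edgeR called 0.418% of all promoters higher and 0.350% lower. Scaled by library totals without TMM, the medians of members and of all promoters were -0.72 and -0.60, so that most of this shift was shared by all genes. Without aOPC replicate 2 the members' median was 0.01. The called promoter was that of Ndufa7 (chr17:33824572-33838317, plus strand, from GENCODE). It passed the filter on low counts only through its aOPC reads, so that it had to differ, and DESeq2 called no member promoter. The 4 sites of the Ndufa7 promoter held 17 and 14 reads in aOPC against 0 and 1 in aOL (edgeR adjusted p = 0.00242). The ratio was 55.0 in pooled CPM, with a 95% exact interval from 9.16 to 2241 that covers counting error only. Most of the aOPC reads came from 1 site in the CpG island, annotated as promoter and intron of Ndufa7, with 13 and 11 reads in aOPC and none in aOL. Its surroundings on the plus strand are shown because this site carries the only promoter call, with the CCGG in capitals.
Ndufa7, chr17:33824685-33824728: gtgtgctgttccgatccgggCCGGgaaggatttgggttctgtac
The site lies downstream of the annotated start of the gene.

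After Ndufa7, 3 promoters had the smallest p, and none was called. Ndufb2, an accessory subunit of complex I, had 20 and 60 promoter reads in aOPC against 85 and 146 in aOL (log2 fold change 1.09 ± 0.44, SE; edgeR adjusted p = 0.565). Sdha had 25 and 26 reads against 9 and 25 (-1.12 ± 0.46; edgeR adjusted p = 0.593), and Sdhaf1 had 50 and 59 against 26 and 58 (-0.89 ± 0.37; edgeR adjusted p = 0.638). In CPM, Ndufb2 was at 2.81 and 3.50 in aOPC against 5.34 and 5.40 in aOL, with no overlap. The promoter with the most CPM was that of the muscle isoform Cox6a2, at 14.5 and 19.8 in aOPC against 19.3 and 18.9 in aOL, although its RNA was among the lowest of the members. The same 8 sites make up its promoter and its gene body.

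Gene bodies were counted as the sum of exon and intron sites. Of 84 members with such sites, 80 were tested, 56 were lower in aOL, and the median log2 fold change was -0.26, against -0.0027 for all 18488 gene bodies. Of these, 2 were called lower and none higher, where edgeR called 0.687% of all gene bodies lower and 0.162% higher. Without aOPC replicate 2 the median was 0.04 and the fit called 3 lower and 3 higher, beside 2% and 1.27% of all gene bodies. Without aOPC replicate 3 it was -0.42, with 27 called lower and 6 higher, beside 12.3% and 10.3% of all gene bodies. By complex, the 4 genes of complex II had a median of -0.82, complex IV -0.81, complex III -0.51, complex V -0.39 and complex I -0.13. Bodies lower without overlap were 3 of 4 in complex II, 2 of 11 in complex IV and 1 of 5 in complex III. In complex V they were 6 of 15 and in complex I 8 of 33, beside 3575 of all 18488. Bodies higher without overlap were 1 in complex III, 2 in complex V and 6 in complex I, beside 3470 of all. The order of the complexes was not tested. Many body sites are also promoter sites, since the 796 promoter and 1141 body sites of the members fall on 1406 sites. The TMM factor of aOPC replicate 2 was 1.75 for promoters and 1.01 for gene bodies. The same reads of Ndufa3 gave a log2 fold change of -0.17 as promoter and -0.77 as gene body. The part of this in the gene body medians was not tested.

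Ndufb7 (chr8:83566671-83571626, plus strand) had the largest difference among the called gene bodies. Its 17 body sites held 100 and 302 reads in aOPC against 60 and 97 in aOL, or 14.1 and 17.6 CPM against 3.77 and 3.58 (log2 fold change -2.13 ± 0.22, SE; edgeR adjusted p = 0.00117). Sdhb (chr4:140961203-140979193, plus strand) had 130 and 261 reads against 121 and 219, or 18.3 and 15.2 CPM against 7.60 and 8.09 (-1.09 ± 0.19; edgeR adjusted p = 0.0228). Both genes also had lower RNA in aOL without overlap, but so did 79 of the 89 members, so this did not set them apart.

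Cox6b1 (chr7:30616861-30626151, minus strand) and Ndufa7 came next and were not called. Cox6b1 had 9.28 and 10.7 CPM in aOPC against 4.65 and 4.58 in aOL (-1.14 ± 0.24, SE; edgeR adjusted p = 0.0646). The body of Ndufa7 held 17 and 15 reads in aOPC against 1 and 2 in aOL (edgeR adjusted p = 0.0947), a ratio of 18.9 with an exact interval from 5.92 to 96.6. Its 6 body sites include the 4 promoter sites, so these are largely the promoter reads given above, counted again. Without the 1 site that gave most of them, 4 and 4 reads remained in aOPC against 1 and 2 in aOL. The Ndufa7 gene body also passed the filter on low counts only through aOPC. In the other direction Ndufb5, chosen after its values were seen, had 2 and 2 reads in aOPC against 36 and 29 in aOL (edgeR adjusted p = 0.223). It passed the filter only through aOL.

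**Figure D4:**
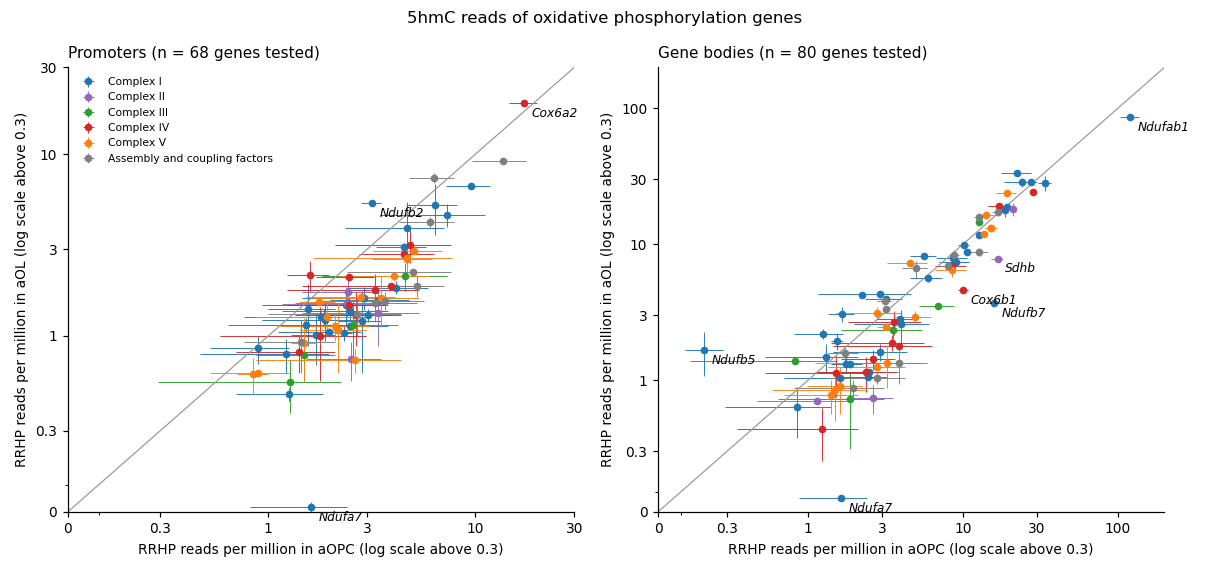
RRHP CPM in aOPC and aOL for the promoters (left) and gene bodies (right) of the members tested, on axes that are logarithmic above 0.3. Points are the means of 2 libraries coloured by complex, bars span the 2 libraries, and the line marks equal values. Most promoters lie below the line with long horizontal bars, Ndufa7 lies at the bottom of both panels, and Ndufb7, Sdhb and Cox6b1 stand below the line among the gene bodies.

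Single sites were tested where 10 reads were reached in 2 or more libraries, so that a site low in 1 population entered only through the other and had to differ. Of 243 member sites tested, 11 were called higher in aOL and 7 lower, where edgeR called 1.21% of 443062 sites higher and 1.08% lower. The 18 sites lay in 13 genes, and 15 of them held at most 3 reads in each library of 1 population. Among the 97 member sites that held 10 reads or more in each of the 4 libraries, none was called by edgeR, where 0.134% of all sites under this filter were called higher and 0.153% lower. At an unadjusted p under 0.05, 2 were higher and 5 lower, beside 3.26% and 3.73% of all sites. Sequences of the strongest sites are shown on the plus strand, with the CCGG in capitals and the measured cytosine at its inner C, or opposite the inner G for the minus strand.
Cox6b1 intron, chr7:30617357-30617400: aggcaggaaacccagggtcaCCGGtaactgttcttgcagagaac
Sdhb exon, chr4:140979014-140979057: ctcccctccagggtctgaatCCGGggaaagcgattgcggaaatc
Ndufb7 intron, chr8:83570754-83570797: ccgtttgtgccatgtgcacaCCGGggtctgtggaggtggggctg
Sdhb intron, chr4:140969342-140969385: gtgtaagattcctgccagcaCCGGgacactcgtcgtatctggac
Cox6b1 exon, chr7:30617044-30617087: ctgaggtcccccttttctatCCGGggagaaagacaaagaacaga
The first 3 of these were read in aOPC and nearly absent from aOL, and the last 2 changed direction with the strand.

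The intron site of Cox6b1 on the minus strand held 30 and 130 reads in aOPC against 1 and 0 in aOL (edgeR adjusted p = 7.71e-06). The exon site of Sdhb, on the minus strand at position 140979036, held 31 and 85 reads in aOPC and none in either aOL library, which is at least 31.2-fold lower against a floor of 3 reads per library. In Ndufb7 both strands of the same intron CpG agreed: 20 and 94 reads on the minus strand and 21 and 67 on the plus strand in aOPC, and none in aOL.

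The other called sites were mostly higher in aOL. In introns, Ndufc2 had no reads in aOPC against 20 and 36 in aOL, which is at least 4.33-fold higher, and Ndufs6 had none against 15 and 13. An intron site of Sdhc had 6 and 4 reads in aOPC against 49 and 98 in aOL (edgeR adjusted p = 0.00593), where both populations held reads. In exons, Uqcrc1 had no reads against 15 and 32, and Ndufa13 had 5 and 12 reads in aOPC against 42 and 69 in aOL (edgeR adjusted p = 0.0370). Intron sites of Ndufs8 (1 and 1 against 21 and 32), Atp5a1 (1 and 0 against 16 and 26) and Ndufaf2 (0 and 0 against 25 and 13) had few reads in aOPC as well.

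At 2 CpGs the strands of 1 site were called in opposite directions. The intron CpG of Sdhb held 30 and 53 reads in aOPC against 1 and 0 in aOL on the minus strand, and 0 and 0 in aOPC against 26 and 41 in aOL on the plus strand. The exon CpG of Cox6b1 held 16 and 32 reads in aOPC and none in aOL on the plus strand, and 8 and 12 in aOPC against 63 and 95 in aOL on the minus strand. Of 37 member CpGs with both strands tested, 13 differed in direction between the strands and 3 had both strands called.

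Sites read in 1 population only were unevenly spread along the genome. In 564 windows of 5 Mb, the share of tested sites that were called and held at most 3 reads in each library of 1 population had a median of 0.558%. The 18 called member sites lay in windows with shares from 0.451% to 13.7%, and 11 of them (61.1%) lay in the 50 windows with the highest shares, as did 41.1% of all called sites. Since called sites also rank the windows, these shares are descriptions. The window of Sdhb ranked 10 by this share, that of Cox6b1 13, that of Ndufb7 16 and that of Sdhc 23. What sets these windows apart was not tested.

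Part of the gene body reads came from these sites. Left without them, a step taken after the values were seen and given without a test, Cox6b1 turned over, from 66 and 184 reads in aOPC against 74 and 124 in aOL to 20 and 22 against 73 and 124. Sdhb, without 3 of 33 sites, had 69 and 123 reads in aOPC against 94 and 178 in aOL, and the ratio of aOL to aOPC in CPM went from 0.468 to 0.739. Ndufb7, without 2 of 17 sites, kept a lower value, with 8.29 and 8.24 CPM in aOPC against 3.77 and 3.58 in aOL. When the sums took only sites that had 3 reads or more in each library, no member gene body or promoter was called.

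**Figure D5:**
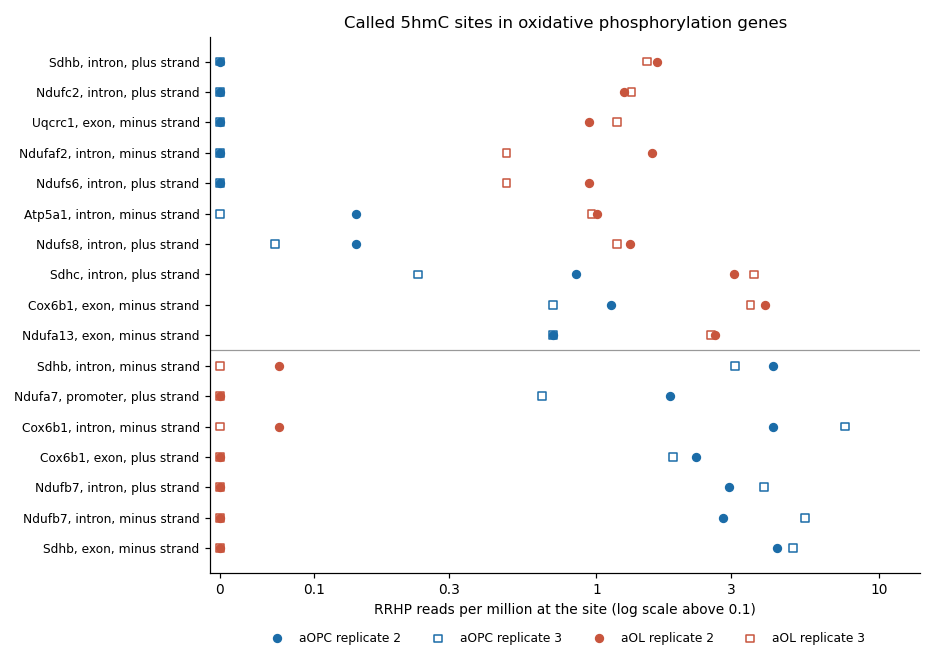
RRHP CPM at 17 of the called member sites in each library, on an axis that is logarithmic above 0.1. Rows are sites named by gene, annotated feature and strand, those above the line being higher in aOL (10) and those below it lower (7). Most rows have the 2 libraries of 1 population at or near 0.

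Over all libraries, the 5 sites with the highest mean CPM were 4 intron sites of Ndufab1, the acyl carrier protein that is also a complex I subunit, and 1 exon site of Ndufb9. The 4 Ndufab1 sites were the 4 highest in each population, and the exon site ranked 5 in aOPC and 6 in aOL. The Ndufab1 sites lie within a short repeat, which their sequences show, again with the CCGG in capitals.
Ndufab1, chr7:122097096-122097139: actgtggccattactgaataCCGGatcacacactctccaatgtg
Ndufab1, chr7:122097172-122097215: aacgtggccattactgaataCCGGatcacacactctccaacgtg
Ndufab1, chr7:122097210-122097253: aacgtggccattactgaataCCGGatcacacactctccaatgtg
Ndufab1, chr7:122097286-122097329: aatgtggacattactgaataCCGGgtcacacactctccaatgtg
The 5 Ndufab1 CpGs above 5 CPM are spaced by 38 to 76 bases, and their windows of 44 bases are identical at 40 to 43 positions, so that reads may be placed at the wrong unit.

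The site at position 122097308 held 130 and 225 reads in aOPC against 202 and 308 in aOL, which is 18.3 and 13.1 CPM against 12.7 and 11.4. The 5 sites gave 53.2% to 62.6% of the body reads of Ndufab1 in each library. The whole gene body was at 138 and 103 CPM in aOPC against 90.8 and 81.9 in aOL, the highest of the members, and was not called (edgeR adjusted p = 0.338).

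RNA and 5hmC were set side by side over the members. Of 76 members with lower RNA in aOL and a tested gene body, 53 also had lower 5hmC there, or 69.7%, close to the share of lower gene bodies among all members tested (56 of 80). Over all genes with lower RNA the share was 54.9%. Between the RNA and gene body 5hmC fold changes, the Spearman correlation was 0.02 over 80 members, and 0.14 over 10388 genes. For promoters it was -0.04 over 68 members and -0.03 over 8901 genes. Genes of 1 library share its depth and scaling, and many gene body sites are also promoter sites, so these values are descriptions.

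Promoter sequences of RefSeq on GRCm38.p6, 300 bases around each annotated start, were found for 76 of 89 members. The letters of 4 motifs were searched on both strands: the NRF1 core CGCATGCG, the GABPA motif CCGGAAGT, the YY1 motif AAGATGGCG and the estrogen-related receptor element TCAAGGTCA. The GABPA motif contains CCGG and so can be read by RRHP. CCGG itself was in 90.8% of the members against 55.2% of all genes searched, and the motif shares were not adjusted for such a difference. The NRF1 core was in 10 members (13.2%, against 2.07% of 27025 genes), the YY1 motif in 8 (10.5% against 1.64%), the GABPA motif in 4 (5.26% against 4.31%) and the receptor element in 2 (2.63% against 0.466%). A promoter of Atp5j, of the peripheral stalk of ATP synthase, held 2 of them, NRF1 followed by YY1, and is shown on its own strand (minus) with both in capitals.
Atp5j, chr16:84834927-84835226: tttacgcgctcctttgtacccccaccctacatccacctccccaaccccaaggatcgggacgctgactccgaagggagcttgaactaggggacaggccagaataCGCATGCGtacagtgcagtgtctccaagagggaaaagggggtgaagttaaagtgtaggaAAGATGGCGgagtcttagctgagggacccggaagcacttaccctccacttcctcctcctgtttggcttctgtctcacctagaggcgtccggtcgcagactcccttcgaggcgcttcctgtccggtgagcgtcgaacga
The 23 members with at least 1 of the motifs had a median RNA change of -0.92 and the 53 with none had -0.94, so these letters did not divide the members by RNA.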

How the data were processed

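RNA-seq and RRHP libraries of aOPC and aOL were compared, with 2 libraries per population and assay, grouped by their titles. The authors' RNA reads were aligned to mm10 with BWA, and unique exon reads were counted with featureCounts; the deposited values are log2 expression with nearly equal quantiles in all libraries, which removes shifts shared by most genes. For RRHP the authors deposited raw read counts per CpG and strand with gene columns. The RRHP aligner was not given in the sources used here. The processing notes name DESeq2 1.2.5.

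Genes that reached a log2 value of 5 in 2 or more libraries entered limma 3.58.1 and called at p under 0.01 with an adjusted p under 0.05. RRHP counts per promoter or gene body (exon and intron columns), filtered with filterByExpr, and per site (10 reads in 2 or more libraries) were tested with edgeR 4.0.16 (quasi-likelihood, TMM), with DESeq2 1.42.0 as an alternative. p-values were adjusted by Benjamini-Hochberg over all features. The study speaks of biological replicates, but whether these libraries came from separate animals was not given in the sources used here, so p-values measure the spread between these libraries. Intervals and floors (3 reads, or 0.111 to 0.422 CPM) cover counting error only. The log2 values carry no read counts, so RNA depth is unknown. Transcript lengths came from GENCODE M21 for 88 of 89 members, and copies were sought with blastn 2.17.0. Same-numbered libraries come from different mouse lines and were not treated as pairs, although same-numbered RRHP files list the same number of sites (1259056 for replicates 2 and 1386042 for replicates 3). Scripts were tested on simulated data.

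Some results are not reported here. Otherwise, genes described by name were every called member, up to 4 with the smallest p per complex without overlap, complex II, isoform sets, the 4 smallest p for promoters and for bodies, called sites, and the 5 sites with most reads. The members and lists were chosen with earlier results of these data known.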

Additional observations from a re-analysis of the deposited data

How the results depend on the processing

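With 2 libraries per population, leaving out 1 aOPC library moved most counts. In RNA the members called lower ranged from 0 to 71 and those called higher from 0 to 2 over the 4 leave-outs, the median from -1.22 to -0.73, and members higher without overlap from 1 to 7. Without the length trend the median was -0.21, with 50 members lower and 8 higher without overlap. For promoters, leave-outs called 1 to 2 members lower and 0 to 1 higher, DESeq2 called 0 lower, sites with 3 reads in every library gave 0, and library totals moved the median to -0.72. For gene bodies, leave-outs called 1 to 27 lower and 0 to 6 higher, and sites with 3 reads in every library gave 0 lower. For single sites, leave-outs called 1 to 13 higher and 6 to 7 lower, 10 reads in every library gave 0 and 0, and 5 reads in 2 libraries gave 13 lower.

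The replicate block called 0 members in RNA, 1 promoter lower, 2 gene bodies lower and 13 sites higher with 8 lower, which changed no call count by over 1.5 times. The replicate differences of the populations correlated at -0.07 in RNA, -0.43 over promoters and -0.42 over gene bodies. With the numbers crossed, the block called 1 promoter higher and 1 lower, and 2 gene bodies higher and 6 lower.

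Some members turned direction. Without the length trend, those described by name were Atp5b (0.033), Atp5g2 (0.20), Cox6b1 (0.071), Cox6b2 (0.64), Cox7a2 (0.62), Cox8a (0.080), Ndufa4 (0.15), Ndufaf2 (0.041), Uqcrb (0.17) and Sdha (-0.011). Further members turned as well, such as Ndufa6 (0.27). Over the leave-outs Cox6a2 ranged from -0.19 to 1.71, Sdha from -0.0059 to 0.24, Sdhd from -0.34 to 1.34 and Cox7a2 from -0.69 to 0.17, the aOPC libraries giving the extremes. Without aOPC replicate 3, 8 members were higher in the mean, Atp5a1 among them, against 4 with all libraries. The gene body of Cox6b1 was at 2.12 when summed over sites with 3 reads in every library. The cause was not tested.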
